A study of Homo sapiens with 4 samples.

Results

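In RD and JR1, established cell lines of fusion-negative rhabdomyosarcoma (FN-RMS), 144 genes responded differently to SKP2 depletion. Rhabdomyosarcoma is a tumour of the skeletal muscle lineage, and FN-RMS is the class without a PAX3 or PAX7 fusion to FOXO1. Both lines were infected with pLKO.1 lentivirus carrying either shSKP2.2, a short hairpin against SKP2, or shSCR, a hairpin without a target. Thus 1 hairpin stands for the depletion. All cells were selected with puromycin, at a higher dose in JR1 than in RD, so dose and line cannot be told apart. Each line and condition gave 1 poly-A RNA-seq library, so the groups are RD shSCR, RD shSKP2.2, JR1 shSCR and JR1 shSKP2.2, with 4 libraries in all and 1 library in each group. There is thus no replicate and no test, and every difference below describes these 4 libraries. For each gene the change in a line was the log2 ratio of TPM + 1 with shSKP2.2 over TPM + 1 with shSCR, where TPM is a library-wide relative abundance corrected for transcript length. Of 39323 genes listed, 8851 averaged 5 TPM or more across the 4 libraries and no symbol of a structural RNA. The 144 members are those of the 8851 in which the RD change and the JR1 change were at least 1 apart, which is 1.63% of them. In 81 genes (0.915%) the RD change was above the JR1 change, and in 63 (0.712%) it was below. The members were chosen by their TPM in all 4 libraries, so their levels and changes are given as a description.

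SKP2 is the substrate receptor of an SCF ubiquitin ligase, which marks inhibitors of cyclin-dependent kinases for destruction and so lets cells enter S phase. In muscle precursors these inhibitors hold cells out of the cycle while MYOD and MYOG, the myogenic regulators, switch on structural genes together with the MEF2 factors. FN-RMS cells express the regulators but do not complete this programme.

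SKP2 itself fell from 92.8 to 7.40 TPM in RD cells, and in JR1 cells from 46.5 to 2.72 TPM in JR1, changes of -3.48 and -3.67. The muscle label held in both lines, since MYOD1 stood between 87.0 and 131 TPM, MYOG between 31.6 and 107 TPM and DES between 36.0 and 51.3 TPM in the 4 libraries. MYF5 was listed at 0 in every library, and MYF6 did not exceed 0.50 TPM. The defining markers of leukocytes, endothelium and epithelium, PTPRC, PECAM1 and EPCAM, did not exceed 0.16 TPM. As whole lists, 18 leukocyte markers summed to between 7.28 and 10.9 TPM per library and 16 endothelial markers to between 16.6 and 53.4 TPM, the endothelial sum being lower with shSKP2.2 in each line. The 20 epithelial markers summed to 218 and 175 TPM in RD and 92.5 and 91.9 TPM in JR1, most of it KRT18, and 15 of them were under 1 TPM in every library. The 30 neuronal markers summed to 707 and 792 TPM in RD and 1172 and 867 TPM in JR1. The 13 rhabdomyosarcoma markers summed to 495 and 621 TPM in RD and 680 and 900 TPM in JR1. Smooth muscle markers, 12 in number, summed to 128 and 98.1 TPM in RD and 110 and 82.9 TPM in JR1. The part of these markers in the results was not tested. The share of structural RNAs in all TPM went from 50.1% to 62.3% in RD and from 57.1% to 64.9% in JR1, and the 8851 genes changed by a median of -0.30 in RD cells and -0.23 in JR1 cells. With these RNAs left out and the rest rescaled, 11344 genes reached 5 TPM and 348 of them the limit, the medians were 0.08 and 0.04, and the share of genes past the limit that lay on the RD side went from 56.2% to 71.3%, so each change is best read against its line's median.

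Among the 8851 genes the difference, RD change minus JR1 change, had a median of -0.08 and an SD of 0.37. The genes at the 5th and 95th percentiles stood at -0.57 and 0.50. Members were mostly modestly expressed, with a median level of 12.4 TPM across libraries and a range of 5.02 to 966 TPM. They made up 2.24% of the genes between 5 and 10 TPM and 1.00% of those of at least 100 TPM. In 88 of the 144 genes the mean reached 5 TPM in each line, and in the other 56 it did so through 1 line alone. Most members, 131, are protein-coding genes, and 6 are long noncoding RNAs.

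The words rose and fell are used here for changes of at least 1 on the log2 scale, a limit that stands in for a test. Over the 8851 genes, 739 (8.35%) fell in RD and 861 (9.73%) in JR1, while 63 (0.712%) rose in RD and 128 (1.45%) rose in JR1. Most members on the RD side were genes that fell in JR1 and moved less in RD: 39 fell in JR1 alone and 10 fell in both lines, more steeply in JR1. On the JR1 side the commonest pattern was a rise in JR1 alone, in 25 genes, followed by a fall in RD alone, in 12. Another 9 genes rose in RD alone. These patterns moved with the scaling: with structural RNAs left out, 38 members of the RD side fell in JR1 alone, 4 fell in both lines and 19 rose in RD alone, while on the JR1 side 28 rose in JR1 alone and 8 fell in RD alone. As deposited and with 1 TPM added, ARPP21, SERPINI1 and WIPF3 rose in both lines and more in JR1. On the same scale CXorf49B rose in both and more in RD, and ANGPT2 and EFR3B fell in both and more in RD. In 19 members on the RD side and 21 on the JR1 side neither line passed 1, so that by the rule their changes had opposite signs.

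Genes that rose in one line and fell in the other were rare, 3 of the 8851 (0.0339%): the pepsinogen genes PGA4 and PGA5 and the ribosomal RNA gene RNA28SN1. Opposite signs of any size were seen in 70 members (48.6%) and in 1727 of the 8851 genes (19.5%), a contrast that the selection on the difference itself favours.

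Of the 9 members on the muscle lists, 7 lay on the JR1 side, and as deposited 5 of these rose in JR1 alone. MEF2C, a transcription factor that works with MYOD on muscle genes, went from 1.76 to 18.7 TPM in JR1 and from 0.98 to 2.05 TPM in RD. Its changes were 2.84 and 0.62, a difference of -2.22. TNNC2, the calcium sensor of fast-twitch troponin, rose from 3.21 to 29.1 TPM in JR1 and had 2.53 and 6.05 TPM in RD, changes of 2.84 and 1.00 as rounded, the RD change lying just under the limit. CKM, the creatine kinase of muscle, rose from 5.01 to 36.7 TPM in JR1, and its RD values were 2.92 and 6.65 TPM. The shSCR levels of these 3 genes were within a few TPM of each other in the lines, and the JR1 shSKP2.2 library stood above the other 3 libraries in each. With structural RNAs left out, MEF2C, TNNC2 and CKM rose in RD too, with changes of 1.12, 1.49 and 1.44.

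MYH3, the embryonic myosin heavy chain, rose from 8.39 to 19.9 TPM in JR1 and had 1.97 and 1.71 TPM in RD, a difference of -1.29. SGCA, the alpha-sarcoglycan of the muscle membrane, stood at 7.61 and 4.19 TPM in RD and at 33.5 and 41.4 TPM in JR1, and neither change passed 1. TBX2, a T-box repressor, fell in RD from 23.3 to 6.90 TPM and had 4.81 and 3.03 TPM in JR1. All of these lie on the JR1 side.

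The muscle lists also held members on the other side. ID3, which blocks the DNA binding of MYOD partners, fell in both lines, from 343 to 149.9 TPM in RD, while JR1 went from 248 to 50.1 TPM in JR1, a difference of 1.09. ANKRD1, an ankyrin repeat protein that binds titin, went from 5.69 to 11.5 TPM in RD and fell from 27.3 to 8.47 TPM in JR1. Its difference of 2.48 is the largest on the RD side of a protein-coding member outside the pepsinogen pair, and the RD level passed the JR1 level after the knockdown. MEF2C, TNNC2, CKM and ANKRD1 stayed at least 1.5 apart between lines when structural RNAs were left out.

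Members made up 8.57% of the sarcomere list, 6.45% of the list of the muscle membrane and 10.8% of the list of myogenic factors, against 1.63% of all 8851 genes. The RD change was below the JR1 change in 23 of 35, 20 of 31 and 27 of 37 of their genes. The median difference over the 8851 genes was -0.08, so most genes lay on that side too. With structural RNAs left out, the counts were 20 of 35, 17 of 31 and 21 of 37. Of 35 sarcomere genes among the 8851, 12 rose in RD and 17 in JR1, and 3 were members (MYH3, TNNC2 and ANKRD1). The list changed by a median of 0.74 in RD cells and 0.83 in JR1 cells. Among 31 genes of the muscle membrane, calcium handling and the neuromuscular junction, the members were SGCA and CKM, and the medians were -0.08 and 0.18. Among 37 myogenic factors and regulators, MEF2C, TBX2 and ID3 were among the 4 members, and the medians were -0.12 and 0.19. The median difference of the membrane list was -0.13, and it turned to 0.02 when ribosomal RNAs, RMRP and RPPH1 were left out along with the structural RNAs. For the sarcomere list it was -0.37 as deposited and -0.14 with the structural RNAs left out. With a pseudocount of 0.1 TPM the sarcomere value was -0.11, and with 5 TPM it was -0.49.

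Some muscle-related genes outside the lists, picked after their values were seen, also lay on the JR1 side. SMPX, a small protein of striated muscle, had 21.6 and 13.1 TPM in RD and 7.90 and 11.8 TPM in JR1. ANK1, an ankyrin with short muscle isoforms, kept 28.8 TPM in both RD libraries and rose in JR1 from 23.7 to 56.2 TPM.

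ARPP21, SERPINI1 and WIPF3 rose in both lines and, with 1 TPM added, had the larger change in JR1. SERPINI1, the neuronal protease inhibitor neuroserpin, rose from 1.64 to 7.39 TPM in RD cells, with JR1 going from 5.24 to 42.7 TPM in JR1. ARPP21, a phosphoprotein regulated by cyclic AMP, rose from 0.30 to 2.50 TPM in RD cells, and in JR1 cells from 2.37 to 19.6 TPM in JR1. WIPF3, of the WASP-interacting family, was near 0 with shSCR in both lines, at 0.48 TPM in RD and 0.30 TPM in JR1, and rose to 7.48 and 17.5 TPM. With the structural RNAs left out, the differences of SERPINI1 and ARPP21 were -0.95 and -0.87, under the limit. With 0.1 TPM added in place of 1 TPM, the differences of SERPINI1 and ARPP21 were -0.90 and -0.30. Without any added value, ARPP21 with shSKP2.2 stood at 8.33 times its shSCR level in RD and 8.27 times in JR1.

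The E-box CAGCTG, a word that MYOD binds, was looked for on both strands of the RefSeq promoters (GRCh38.p14, from 250 bases before to 50 bases after the start), of which 104 of the 144 members have one in the table. It is its own reverse complement, so both strands give the same matches. The word stood in 17.7% of all 27305 promoters, in 16.4% of those of the 8851 genes, in 11 of 42 (26.2%) on the JR1 side and in 9 of 62 (14.5%) on the RD side. In the muscle lists it stood in 1 of 4 member promoters and in 20 of 68 (29.4%) of the others. The 250 bases before the start are shown for CKM and for ARPP21, SERPINI1 and WIPF3, all of which hold the word, in capitals. They lie at chr19:45322876-45323125 on the minus strand for CKM and on the plus strand for the others, at chr3:35639275-35639524 for ARPP21, chr3:167735471-167735720 for SERPINI1 and chr7:29806258-29806507 for WIPF3. SERPINI1 has 4 matches, whose first bases lie 174, 137, 108 and 78 bases before the start, and the other 3 genes have 1 match each. A match is a description of the letters and not a bound site.
CKM: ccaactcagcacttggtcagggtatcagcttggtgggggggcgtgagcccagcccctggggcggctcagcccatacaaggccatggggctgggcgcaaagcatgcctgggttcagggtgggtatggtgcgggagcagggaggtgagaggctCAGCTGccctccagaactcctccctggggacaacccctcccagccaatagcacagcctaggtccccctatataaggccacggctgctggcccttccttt
ARPP21: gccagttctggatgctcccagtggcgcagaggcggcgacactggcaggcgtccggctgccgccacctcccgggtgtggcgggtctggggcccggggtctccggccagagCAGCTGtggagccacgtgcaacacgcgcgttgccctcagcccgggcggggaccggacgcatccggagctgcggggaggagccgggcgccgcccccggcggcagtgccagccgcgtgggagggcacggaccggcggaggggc
SERPINI1: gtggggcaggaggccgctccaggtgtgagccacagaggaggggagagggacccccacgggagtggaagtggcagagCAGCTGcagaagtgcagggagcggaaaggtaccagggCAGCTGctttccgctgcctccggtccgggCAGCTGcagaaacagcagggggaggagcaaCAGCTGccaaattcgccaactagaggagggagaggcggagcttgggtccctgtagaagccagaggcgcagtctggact
WIPF3: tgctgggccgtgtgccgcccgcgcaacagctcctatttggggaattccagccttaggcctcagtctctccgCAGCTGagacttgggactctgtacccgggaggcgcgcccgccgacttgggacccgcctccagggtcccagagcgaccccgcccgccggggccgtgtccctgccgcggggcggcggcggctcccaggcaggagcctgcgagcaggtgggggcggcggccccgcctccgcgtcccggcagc

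Interferon-stimulated genes among the members all had the steeper decrease in JR1. Of 69 such genes among the 8851, 31 fell in RD and 56 fell in JR1, none rose in either line, and the median changes were -0.94 and -1.52. The members numbered 9 (13.0% of the list), all on the RD side. In the whole list 57 of 69 genes had the RD change above the JR1 change, with a median difference of 0.34 against -0.08 over the 8851 genes. After rescaling without structural RNAs the count was 61 of 69 and the median difference 0.48. These genes encode antiviral proteins and parts of antigen presentation that interferons switch on.

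IFI6, a mitochondrial protein that interferon induces, fell from 63.8 to 26.6 TPM in RD, while JR1 went from 178 to 25.7 TPM in JR1. OAS3, a sensor of double-stranded RNA, fell from 18.8 to 7.40 TPM in RD cells, with JR1 going from 24.8 to 4.31 TPM in JR1. These are the members that fell in both lines, and with structural RNAs left out neither RD change passed 1. The other 7 fell in JR1 alone. For GBP1, an interferon-induced GTPase, the JR1 values were 20.8 and 7.71 TPM and the RD values 3.19 and 3.02 TPM. IFI27L2 had 12.2 and 4.80 TPM in JR1 and 3.35 and 3.32 TPM in RD. Both lines thus ended nearer to each other than they began.

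TAP1, a subunit of the transporter that loads peptides for MHC class I, fell from 24.7 to 10.9 TPM in JR1 and read 14.1 and 13.97 TPM in RD. Its neighbour PSMB8, a subunit of the immunoproteasome, lies 530 bases away on chromosome 6 and fell from 41.3 to 13.5 TPM in JR1, with 27.8 and 19 TPM in RD. IFI30, a thiol reductase of antigen processing, had 79.6 and 39.3 TPM in JR1 against 29.4 and 35.4 TPM in RD. HELZ2, a nuclear receptor coactivator, fell in JR1 from 42.6 to 10.4 TPM, and IFI35 from 23.4 to 7.35 TPM. Their RD values were 33.2 and 18.2 TPM for HELZ2 and 12.2 and 8.17 TPM for IFI35. With structural RNAs left out, TAP1 and IFI30 no longer passed 1 in JR1, although the gap between the lines stayed above 1 for all 9 genes. With a pseudocount of 5 TPM it did so for 2 of the 9, IFI6 and IFI30.

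**Figure D1:**
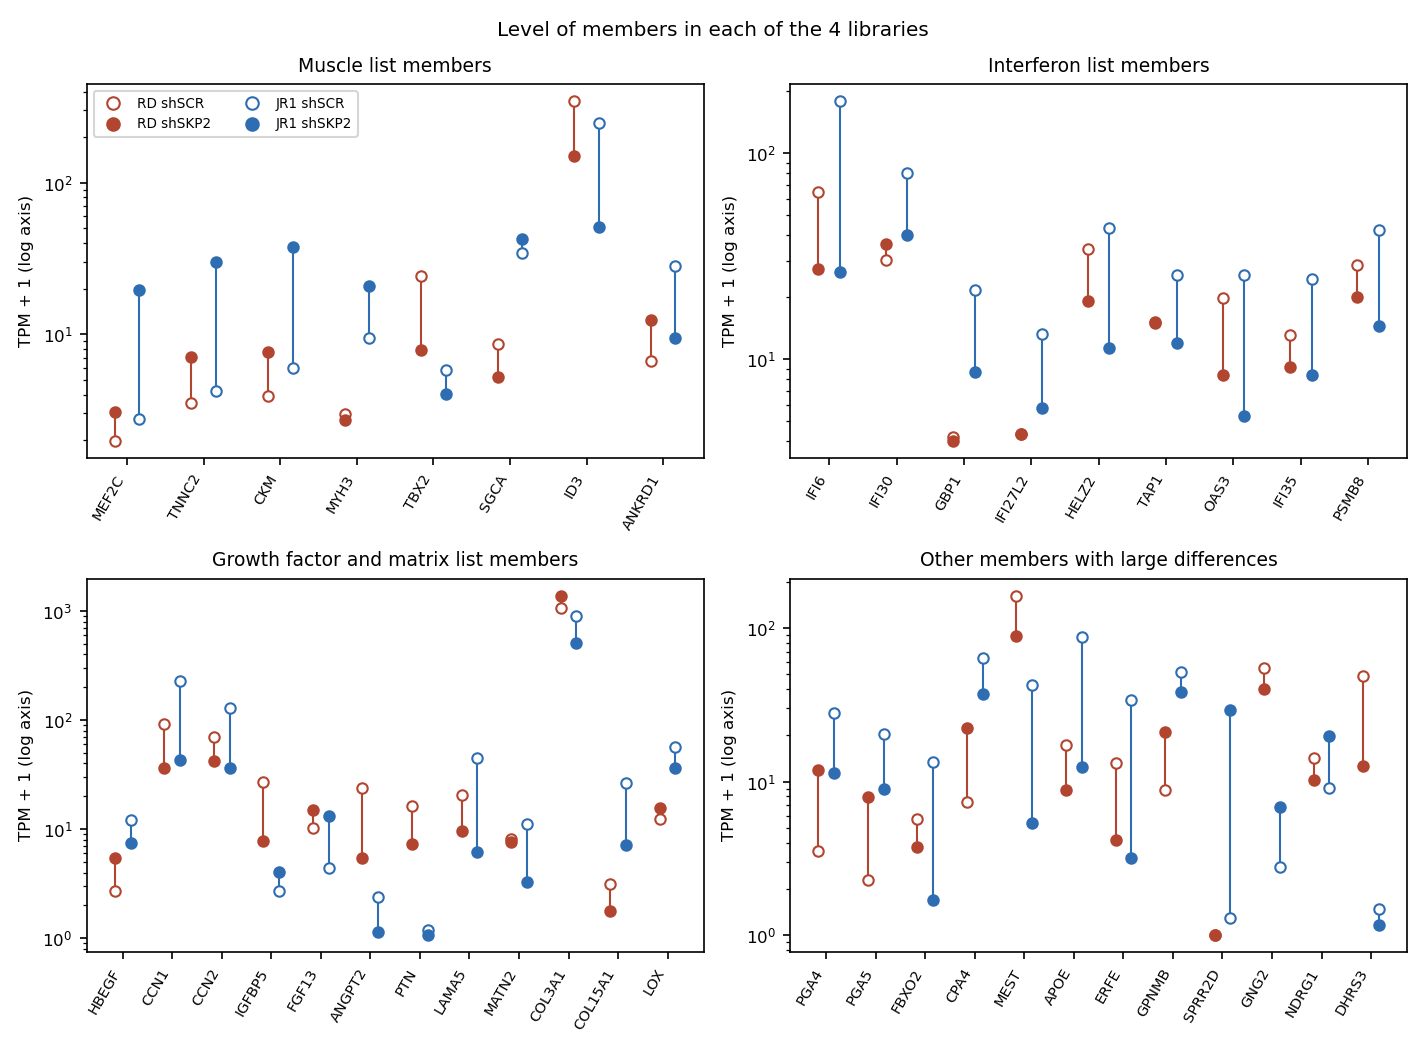
Levels of selected members in the 4 libraries, as TPM + 1 on a log axis, with open circles for shSCR, filled circles for shSKP2.2, red for RD and blue for JR1, and a line joining the libraries of a cell line. Among the interferon genes the open blue circle is the highest point in every case, and for MEF2C, TNNC2 and CKM the filled blue circle is.

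An interferon response element, written as GAAA, any 2 bases and GAAA, read on either strand with overlapping matches counted, stood in 4 of the 9 interferon promoters, those of IFI6, GBP1, OAS3 and TAP1. It stood in 26 of 43 promoters of the listed interferon genes that were not members, in 3.65% of all promoters, in 5 of 62 on the RD side and in 0 of 42 on the JR1 side. The 250 bases before the start of these 4 genes are shown for their matches, in capitals. IFI6 (chr1:27672193-27672442, minus strand) holds 3 matches, the first bases of which lie 156, 115 and 93 bases before the start. GBP1 (chr1:89065209-89065458, minus strand) holds 1, OAS3 (chr12:112938224-112938473, plus strand) 2 and TAP1 (chr6:32853705-32853954, minus strand) 2 that overlap. In GBP1 and TAP1 the match is on the reverse strand and reads TTTC, any 2 bases and TTTC.
IFI6: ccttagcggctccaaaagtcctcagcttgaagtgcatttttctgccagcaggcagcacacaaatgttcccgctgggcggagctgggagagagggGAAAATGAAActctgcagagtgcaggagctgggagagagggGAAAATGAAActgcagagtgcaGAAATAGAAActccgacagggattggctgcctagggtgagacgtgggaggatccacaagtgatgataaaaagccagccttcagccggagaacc
GBP1: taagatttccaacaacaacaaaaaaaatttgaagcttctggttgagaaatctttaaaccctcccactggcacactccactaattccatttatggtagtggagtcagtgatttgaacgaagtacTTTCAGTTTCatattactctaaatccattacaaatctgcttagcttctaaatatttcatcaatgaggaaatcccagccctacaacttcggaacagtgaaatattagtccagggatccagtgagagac
OAS3: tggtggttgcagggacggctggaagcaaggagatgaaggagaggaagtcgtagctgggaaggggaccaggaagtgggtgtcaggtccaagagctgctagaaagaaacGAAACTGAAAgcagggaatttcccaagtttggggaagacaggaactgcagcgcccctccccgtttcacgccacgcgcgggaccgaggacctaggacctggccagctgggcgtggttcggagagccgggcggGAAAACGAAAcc
TAP1: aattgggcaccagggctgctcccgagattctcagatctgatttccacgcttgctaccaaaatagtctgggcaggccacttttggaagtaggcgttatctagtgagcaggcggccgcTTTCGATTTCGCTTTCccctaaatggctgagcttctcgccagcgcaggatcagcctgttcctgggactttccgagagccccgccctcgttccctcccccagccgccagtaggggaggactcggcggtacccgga

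Among 22 genes of a growth factor list, which also holds binding and matricellular proteins, 7 were members, and they lay on both sides. That is 31.8% of the list, against 1.63% of the 8851 genes. With a pseudocount of 5 TPM, or after centring, 4 genes of the list passed the limit. HBEGF, a ligand of the EGF receptor, had 1.71 and 4.39 TPM in RD and 11.2 and 6.44 TPM in JR1, changes of 0.99 and -0.71. CCN1 and CCN2, matricellular proteins that bind integrins and growth factors, had less RNA after SKP2 depletion in either line. CCN1 fell from 91.8 to 35.7 TPM in RD cells, and in JR1 cells from 227 to 42.4 TPM in JR1, and CCN2 read 68.4 and 41.4 TPM in RD and fell from 127 to 35.4 TPM in JR1. On the other side, IGFBP5, which binds insulin-like growth factors, fell in RD from 26.1 to 6.76 TPM and read 1.70 and 3.03 TPM in JR1. Its difference of -2.38 is the largest on the JR1 side after SPRR2D, XAGE1A and MAGED4B.

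FGF13, an intracellular member of the fibroblast growth factor family, rose in JR1 from 3.40 to 12.3 TPM and had 9.28 and 13.8 TPM in RD. ANGPT2, a ligand of the TIE2 receptor, fell from 22.6 to 4.42 TPM in RD, while JR1 went from 1.37 to 0.14 TPM in JR1. PTN, pleiotrophin, fell from 15.3 to 6.29 TPM in RD and was almost absent from JR1, at 0.19 and 0.07 TPM. For such low values the added 1 TPM sets the change. With 0.1 TPM added in its place, the difference of ANGPT2 turned from -1.07 to 0.29.

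The 5 members on the list of collagens and matrix proteins were all on the RD side. They made up 9.26% of the list, against 1.63% of the 8851 genes. With a pseudocount of 5 TPM 3 genes of the list passed the limit, and with structural RNAs left out 4 did. COL3A1, type III collagen and the most abundant member, read 1069 and 1383 TPM in RD and 904 and 509 TPM in JR1, and neither change passed 1. LAMA5, a laminin chain, fell from 19.4 to 8.66 TPM in RD cells, with JR1 going from 44.01 to 5.16 TPM in JR1. MATN2, a matrilin, had 7.12 and 6.54 TPM in RD and fell from 10.1 to 2.29 TPM in JR1. COL15A1, a basement membrane collagen, fell in JR1 from 25.3 to 6.21 TPM and had 2.14 and 0.78 TPM in RD. Its difference was under the limit with 0.1 TPM added in place of 1 TPM, at 0.66, and with structural RNAs left out, at 0.90. LOX, the enzyme that crosslinks collagen, read 11.3 and 14.7 TPM in RD and 55.6 and 35.2 TPM in JR1.

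Of 54 collagens and matrix proteins among the 8851 genes, 18 fell in RD and 30 in JR1, and 37 had the RD change above the JR1 change. The summed TPM of 12 fibroblast markers, of which COL3A1 is the most abundant, was 1546 and 1559 in RD and 1515 and 662 in JR1. Whether cells differed in number or in RNA per cell cannot be told apart in bulk RNA, and the part of this shift in the matrix result was not tested. Other secreted proteins that act on the matrix, PCOLCE, ADAMTS1 and ADAMTS14, also lay on the RD side. PCOLCE, which assists procollagen processing, fell from 6 to 2.28 TPM in RD cells, and in JR1 cells from 17.1 to 2.45 TPM in JR1. The protease ADAMTS14 had 2.03 and 5.01 TPM in RD and 23.6 and 15.03 TPM in JR1, and ADAMTS1 had 26.2 and 30.2 TPM against 63.8 and 34.3 TPM.

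CCN1, CCN2 and ANKRD1 are classical targets of YAP and TEAD, the effectors of the Hippo pathway. On a list of 20 such genes drawn up after the values were seen, 4 (20%) were members, against 1.63% of the 8851 genes. Drawing up the list after the values were seen favours such a share. In 14 of the 20 the RD change was above the JR1 change. The fourth member, AMOTL1, an angiomotin that binds YAP, stood on the JR1 side, with 58.6 and 31.01 TPM in RD and 24.8 and 26.8 TPM in JR1. Its paralog AMOTL2 was no member and read 40.2 and 43.4 TPM in RD and 38.3 and 28.8 TPM in JR1. Over the list the median change was -0.47 for RD and -0.63 for JR1, and the median difference was 0.10 against -0.08 over the 8851 genes.

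Ligands, receptors and signalling enzymes of several kinds also lay on the RD side. CCL2, a chemokine for monocytes, had the steepest falls of any member, from 7.23 to 0.34 TPM in RD, while JR1 went from 29.7 to 0.88 TPM in JR1. APOE, the lipid carrier, fell in JR1 from 86.2 to 11.5 TPM and read 16.3 and 7.87 TPM in RD. ERFE, the hormone erythroferrone, fell from 12.2 to 3.16 TPM in RD cells, with JR1 going from 33.03 to 2.18 TPM in JR1. FBXO2, like SKP2 an F-box protein, fell in JR1 from 12.4 to 0.68 TPM and had 4.70 and 2.75 TPM in RD, a difference of 2.39. In each of these 4 genes JR1 began above RD, and in ERFE, CCL2 and FBXO2 both lines ended under 4 TPM.

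GPNMB, a transmembrane glycoprotein of pigment cells and macrophages, rose in RD from 7.80 to 19.96 TPM and had 51 and 37.5 TPM in JR1. SPHK1, a sphingosine kinase, fell in JR1 from 22.2 to 6.61 TPM and had 2.74 and 2.66 TPM in RD. NRP2, a receptor of semaphorins and VEGF, fell in JR1 from 24.5 to 6.94 TPM with 10.8 and 8.06 TPM in RD. PROM1, the surface glycoprotein CD133, fell in JR1 from 17.2 to 2.43 TPM and read 30.04 and 15.7 TPM in RD. VGF, a neuropeptide precursor, was 518 and 351 TPM in JR1 and 7.42 and 13.9 TPM in RD, and neuropeptide NPY read 17.96 and 18.1 TPM in RD and fell from 10.6 to 4.13 TPM in JR1. SPHK1 and NPY thus kept nearly the same level in both RD libraries.

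Several members with other roles also fell in JR1 and changed by less than 1 in RD. SDF2L1, an endoplasmic reticulum protein of the unfolded protein response, had 18.4 and 18.5 TPM in RD and fell from 21.8 to 9.66 TPM in JR1. CHRNA9, an acetylcholine receptor subunit, had 6.88 and 6.66 TPM in RD and fell from 13.7 to 6.13 TPM in JR1. PLK2, a kinase induced by p53, had 119.6 and 74.1 TPM in RD and fell from 102 to 30.5 TPM in JR1. PTGES, a prostaglandin E synthase, had 10.5 and 5.01 TPM in RD and fell in JR1 from 7.07 to 1.09 TPM.

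Further members on the RD side, picked after their values were seen, cover secreted proteins, receptors and regulators. ALPL, the tissue-nonspecific alkaline phosphatase, had 25.5 and 15.9 TPM in RD and fell in JR1 from 26.3 to 5.41 TPM. The lines thus began together and parted, which set ALPL apart from APOE or LAMA5. GLT8D2, a predicted glycosyltransferase, fell in JR1 from 23.6 to 2.2 TPM and in RD from 3.95 to 0.90 TPM. CEBPD, a bZIP transcription factor of the acute phase response, had 18.5 and 12.9 TPM in RD and fell in JR1 from 39.98 to 12.4 TPM. ADORA2B, an adenosine receptor, had 20.4 and 18.1 TPM in RD and fell in JR1 from 44.9 to 18.5 TPM, so that the shSKP2.2 libraries of the lines nearly met.

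Proteins of the endoplasmic reticulum and Golgi were among them. FKBP11, a prolyl isomerase of the secretory pathway, had 3.43 and 2.69 TPM in RD and fell in JR1 from 21.1 to 6.69 TPM. SELENOM, a selenoprotein of the endoplasmic reticulum, had 23.5 and 28.3 TPM in RD and 69.8 and 35.2 TPM in JR1. COPZ2, a coatomer subunit, had 3.54 and 4.51 TPM in RD and 9.27 and 4.82 TPM in JR1. For FKBP11 and SELENOM the JR1 libraries lay above both RD libraries, before and after the knockdown.

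A smaller set had higher values with shSKP2.2 in RD. EEF1A2, the elongation factor of muscle and neurons, had 16.1 and 30.8 TPM in RD and 23.7 and 20.1 TPM in JR1, so the order of the lines was swapped. SCO2, a copper chaperone of cytochrome oxidase, had 9.01 and 18.5 TPM in RD and 19.1 and 15.2 TPM in JR1. OLFM2, an olfactomedin, rose in RD from 3.37 to 8.13 TPM and had 6.12 and 5.42 TPM in JR1. UNC5D, a netrin receptor, had 2.99 and 5 TPM in RD and 7.10 and 5.04 TPM in JR1. Among the noncoding members, LINC00626 rose in RD from 0.34 to 3.79 TPM and had 8.14 and 12.4 TPM in JR1, and LINC02392 had 0.57 and 1.83 TPM against 14.04 and 11.5 TPM. RCC2-AS1, antisense to RCC2, had 15.03 and 10.4 TPM in RD and fell in JR1 from 13.7 to 2.93 TPM, a value that strand could affect as for other antisense genes.

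The remaining members of the RD side lay between differences of 1.05 and 1.40. They are CILP2, NCOA7, GASK1B, LOC728392, NDRG4, TRABD2A, TMEM63C and MAP1LC3B2, of which TMEM63C and MAP1LC3B2 passed 1 in neither line and the other 6 fell in JR1 alone. MAP1LC3B2 shares 58.2% of its 31-base words with other genes, and its value is uncertain.

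The JR1 side held transcription factors, receptors and enzymes that rose in JR1. KLF2, a Kruppel-like factor, had 15.7 and 16.3 TPM in RD and rose in JR1 from 9.47 to 27.3 TPM. NDRG1, which hypoxia induces, rose in JR1 from 8.02 to 18.9 TPM and had 13.3 and 9.23 TPM in RD. GNG2, a G protein gamma subunit, rose in JR1 from 1.77 to 5.86 TPM, far below its RD levels of 54.1 and 39.1 TPM. MME, the peptidase neprilysin, rose in JR1 from 11.2 to 31.3 TPM and had 8.28 and 9.15 TPM in RD. NPNT, the integrin ligand nephronectin, rose in JR1 from 4.74 to 23.6 TPM and had 1.11 and 2.65 TPM in RD. EPHA7, an ephrin receptor, had 15.4 and 14.7 TPM in RD and rose in JR1 from 7.11 to 16.8 TPM.

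Other members on the JR1 side, picked after their values were seen, included regulators of transcription and stress. TSC22D3, which glucocorticoids induce, had 40.3 and 25.02 TPM in RD and 20.1 and 31.5 TPM in JR1. MAF, a bZIP factor, had 16.1 and 9.20 TPM in RD and 1.73 and 2.82 TPM in JR1. LMO4, a LIM domain cofactor, had 8.08 and 4.04 TPM in RD and 4.69 and 5.95 TPM in JR1. In these 3 genes RD was lower and JR1 higher with shSKP2.2, without a change past 1. GADD45G, a stress-induced growth arrest protein, had 5.79 and 5.51 TPM in RD and rose in JR1 from 2.90 to 7.59 TPM. ZBTB12, a zinc finger protein, fell in RD from 17.1 to 6.25 TPM and had 2.95 and 2.79 TPM in JR1.

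Cytoskeletal, metabolic and signalling genes made up most of the rest. WIPF1, of the same family as WIPF3, had 12.02 and 9.41 TPM in RD and 13.2 and 26.6 TPM in JR1. LMO7, a LIM domain protein of cell junctions, had 9.91 and 18.5 TPM in RD and rose in JR1 from 7.10 to 28.8 TPM. IDH2, the mitochondrial isocitrate dehydrogenase, had 32 and 15.7 TPM in RD and 11.01 and 13.8 TPM in JR1, so that the lines came close with shSKP2.2. ITPR3, a calcium channel of the endoplasmic reticulum, had 24.98 and 12.4 TPM in RD and 13.3 and 14.1 TPM in JR1. MOXD1, a monooxygenase-like protein, had 21.2 and 23.7 TPM in RD and rose in JR1 from 14.3 to 35.5 TPM. PID1, an adaptor that binds LRP1, had 9.58 and 12.9 TPM in RD and rose in JR1 from 12.4 to 35.3 TPM.

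Smaller differences, between -1.31 and -1.03, were those of AUTS2, TMEM158, LINC02154, DYRK4, SAP25, GALNT10, VSIR, TCEA3, DEPP1, WSCD1 and COMMD3. TMEM158, LINC02154, GALNT10, VSIR and COMMD3 rose in JR1 alone, and the others passed 1 in neither line. VSIR, an immune checkpoint receptor, had 9.5 and 8.84 TPM in RD and rose in JR1 from 1.18 to 3.41 TPM. SAP25 shares 97.1% of its words with another gene and its value is uncertain.

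SPRR2D, a cornified envelope protein of keratinocytes, had the lowest difference of all, -4.49. It was listed at 0 in both RD libraries and at 0.30 TPM in JR1 shSCR, and it stood at 28.3 TPM in JR1 shSKP2.2. The 7 genes of the SPRR2 family on chromosome 1 summed to 0.40 and 34.9 TPM in JR1, so most of this RNA was assigned to SPRR2D. In the same library SPRR2C had 2.53 TPM, SPRR2A 1.63 TPM and SPRR2E 1.35 TPM, and none of the 7 was above 0 in RD.

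The genes that fell in RD alone were often low in JR1 already with shSCR. DHRS3, a reductase of retinaldehyde, fell in RD from 47.5 to 11.6 TPM and read 0.48 and 0.16 TPM in JR1. RDH10, which oxidises retinol to retinaldehyde, fell in RD from 54.5 to 22.8 TPM and read 6.6 and 6.72 TPM in JR1. Both act on the same step of retinoid metabolism in opposite directions, and they were the members among 12 retinoid genes listed after the values were seen. That is 16.7% of the list, against 1.63% of the 8851 genes, a share that such a late list favours. HTR2B, a serotonin receptor, fell from 17.5 to 7.22 TPM in RD and had 0.81 and 0.75 TPM in JR1. ITGA9, an integrin chain, fell in RD from 29.1 to 6.38 TPM and read 9.67 and 4.94 TPM in JR1. VASH1, a tubulin carboxypeptidase, fell in RD from 38.6 to 16.99 TPM and read 6.61 and 6.78 TPM in JR1. With 0.1 TPM added in place of 1 TPM, the difference of DHRS3 was -0.87, under the limit. With structural RNAs left out, the RD changes of RDH10, HTR2B and VASH1 no longer passed 1, at -0.84, -0.84 and -0.77.

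EFR3B, which helps anchor a lipid kinase at the plasma membrane, fell from 21.2 to 3.65 TPM in RD cells, and in JR1 cells from 5.32 to 2.07 TPM in JR1. SNHG9, a snoRNA host, fell in RD from 8.52 to 1.01 TPM and had 6.94 and 3.60 TPM in JR1. CDR1 fell in RD from 4.41 to 0.34 TPM and read 8.86 and 6.87 TPM in JR1. An antisense transcript lies opposite CDR1, and the sources used here do not say whether strand was used in counting, so its value is uncertain. ZCRB1, a protein of the minor spliceosome, and SEL1L3 were members without a change past 1 in either line, with differences of -1.43 and -1.38.

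Complement and coagulation regulators, another list drawn up after the values were seen, had 4 members of 9 genes. That is 44.4% of the list, against 1.63% of the 8851 genes, a share that such a late list favours. C1RL, a serine protease of the complement type, fell in JR1 from 18.1 to 4.90 TPM with 15.98 and 9.68 TPM in RD. PROCR, the protein C receptor, fell in JR1 from 52.6 to 18.2 TPM with 16.6 and 12.2 TPM in RD. THBD, thrombomodulin, the partner of PROCR in the activation of protein C, lay on the other side. It fell in RD from 23.6 to 11.2 TPM and had 2.40 and 2.76 TPM in JR1.

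A few members are neighbours on a chromosome. CPA4, a carboxypeptidase, and MEST, an imprinted gene of the hydrolase family, lie on chromosome 7 in the same imprinted region, 161995 bases apart. CPA4 rose in RD from 6.41 to 21.3 TPM and read 62.6 and 36.4 TPM in JR1. MEST read 162 and 87.6 TPM in RD and fell in JR1 from 41.5 to 4.40 TPM. The differences were 2.36 and 2.09, although one gene was higher in RD after the knockdown and the other lower. CEP41, between them, was under the level filter and had a difference of 1.06, and COPG2, next to MEST, had a difference of -0.20.

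PRAC1 and PRAC2 overlap on chromosome 17 beside HOXB13. PRAC1 fell from 10.3 to 2.80 TPM in RD, while JR1 went from 7.85 to 0.24 TPM in JR1, and PRAC2 had 10.0 and 6.99 TPM in RD and fell from 8.46 to 1.55 TPM in JR1. HOXB13 had a difference of 0.36. As PRAC1 and PRAC2 overlap, their reads may not be fully separated. ITGA9 and CTDSPL, a small phosphatase gene, are neighbours on chromosome 3 with differences of -1.18 and -1.08, and CCN2 and MOXD1 on chromosome 6 lie on opposite sides, with 1.10 and -1.10. The X chromosome held 9 members among 288 tested genes (3.13%), 7 of them on the JR1 side, and several of these have near-identical copies.

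PGA4 and PGA5, precursors of the stomach protease pepsin, rose in RD and fell in JR1. PGA4 went from 2.52 to 10.9 TPM in RD cells, with JR1 going from 27.1 to 10.3 TPM in JR1, and PGA5 from 1.27 to 6.91 TPM in RD cells, and in JR1 cells from 19.5 to 7.92 TPM in JR1. JR1 shSCR was the highest library for each gene, and the levels of the lines were close to each other with shSKP2.2. The genes lie 9481 bases apart on chromosome 11, and 87.3% of the 31-base words of PGA5 transcripts occur in other genes. Their promoter windows are identical at 298 of 298 positions when shifted by 2 bases, so 1 is shown, that of PGA4 before its start at chr11:61222097-61222346 on the plus strand, with the E-box CAGCTG in capitals. Summed with PGA3, the family read 3.96 and 18.1 TPM in RD and 47.0 and 18.7 TPM in JR1, a difference of 3.23.
PGA4: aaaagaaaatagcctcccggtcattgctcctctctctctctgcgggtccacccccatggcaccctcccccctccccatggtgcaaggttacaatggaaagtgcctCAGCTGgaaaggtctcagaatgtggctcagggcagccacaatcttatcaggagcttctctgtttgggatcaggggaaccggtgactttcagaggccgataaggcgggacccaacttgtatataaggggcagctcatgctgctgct

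For other members the result depended on the copy. All 31-base words of MAGED4B, XAGE1A and CXorf49B, genes of the X chromosome, are shared with a second copy of the gene. MAGED4B had 13.8 and 7.47 TPM in RD and 3.70 and 21.3 TPM in JR1, a difference of -3.04, whereas MAGED4 had 52.5 and 43.6 TPM in RD and 42.5 and 21.8 TPM in JR1. The pair summed to 66.3 and 51.0 TPM in RD and 46.2 and 43.1 TPM in JR1, and its difference was -0.27. XAGE1A had a difference of -2.67 and XAGE1B one of 0.96, and their sum -0.25. CXorf49B, listed at 0 in RD shSCR and 13.6 TPM in RD shSKP2.2, had a difference of 2.30, and its sum with CXorf49 -0.05. GAGE12J, 94.2% of whose words occur elsewhere, was listed at 0 in JR1 shSKP2.2, and the 12 GAGE genes together differed by 0.28. CBWD1 passed 1 on the JR1 side at -1.04, and its family of 5 genes differed by -0.32. Reads made of shared words cannot be divided between copies by sequence, and the single values are uncertain. Of 137 members matched to GENCODE release 44 transcripts, 7 shared at least 50% of their words with other genes and 114 under 10%.

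Among the members, 5 are copies of the ribosomal RNA genes, RNA18SN2, RNA18SN3, RNA18SN4, RNA28SN1 and RNA28SN4, which carry the largest differences of all. RNA28SN1 rose in RD from 5.50 to 96.6 TPM and fell in JR1 from 7.46 to 2.7 TPM, a difference of 5.10. The 3 members of the 18S kind had identical values, 4.87 and 115 TPM in RD and 5.34 and 3.30 TPM in JR1, and the copies cannot be told apart. All 18S genes summed to 14.6 and 345.3 TPM in RD and 16.02 and 9.90 TPM in JR1. Ribosomal RNA has no poly-A tail, and these libraries were made from poly-A RNA. RD shSKP2.2 stood far above the other 3 libraries for both kinds of gene. Among 104 structural RNA genes of at least 5 TPM, which the rule leaves out by symbol, 54 also passed the limit.

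The lines began apart in most members. In 79 of the 144 genes (54.9%) the shSCR libraries were at least 1 apart on the log2 scale, against 797 of the 8851 (9.005%). On the RD side 67 of 81 genes were higher in JR1 shSCR than in RD shSCR, and on the JR1 side 48 of 63 were higher in RD shSCR. After SKP2 depletion the lines were closer in 92 members (63.9%), against 59.5% of the 8851 genes, and their order was swapped in 58 members (40.3%), against 21.3%. The median gap between the lines was 1.09 with shSCR and 0.85 with shSKP2.2, in log2 units without sign. The shSCR levels enter the rule, so these counts describe the members and support nothing. The lines ended at a like level in WSCD1, with 20.03 TPM in both shSKP2.2 libraries, and RCAN1, an inhibitor of calcineurin, which read 11.6 and 17.3 TPM in RD and 33.8 and 18.7 TPM in JR1.

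**Figure D2:**
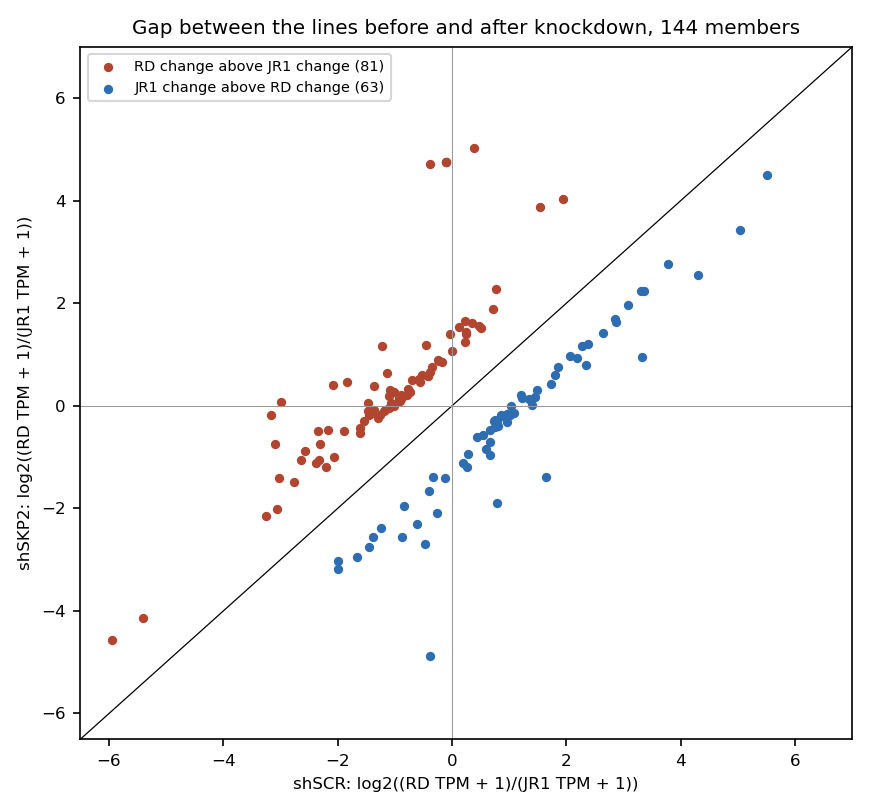
Gap between the lines, log2 of RD TPM + 1 over JR1 TPM + 1, with shSCR (horizontal axis) and with shSKP2.2 (vertical axis) for the 144 members, red for the 81 with the RD change above the JR1 change and blue for the other 63. Red points lie above the diagonal and blue points below it by the rule, and most red points start left of 0 (67 of 81) while most blue points start right of it (48 of 63).

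Many lists had no member. None of 56 cell cycle genes, 80 cytosolic ribosomal proteins, 70 histone genes, 34 genes of cholesterol and fatty acid synthesis, 23 HOX genes, 27 genes of the Wnt, Notch and Hedgehog pathways, 15 heat shock genes or 217 ZNF genes was at least 1 apart between lines. At the share of 1.63% over all genes, lists of these sizes hold few members or none, so the zeros say little about the smaller lists. The cell cycle list had median changes of -0.71 (RD) and -0.81 (JR1), and the cholesterol list -1.09 and -0.96. Solute carriers had 1 member of 134, SLC12A7, a potassium chloride cotransporter that read 26.04 and 22.7 TPM in RD and fell from 31.2 to 11.8 TPM in JR1. Of the 144 members, 87 were in no list.

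At the limit the choice is fine. GAS1, a Hedgehog coreceptor, was the last member on the RD side, with 167 and 173 TPM in RD and 222 and 115 TPM in JR1, and LRRC8E, BCYRN1, LINC01686 and CHRNA9 lay just inside with it. BMP4 at 0.9966 was the first gene outside, followed by FLJ20021, NPTX2, ACOT1 and TRIB1. On the JR1 side GFRA1, the receptor of GDNF, was the last member, with 52.8 and 26.8 TPM in RD and 0.18 and 0.22 TPM in JR1, followed inward by AMOTL1, PTN, SGCA and COMMD3. CEROX1 at -0.9995 was the first outside, and HRC, MKKS, NOG and MYBPH came next. HRC and MYBPH are muscle proteins and NOG binds BMPs, and their differences were -0.99, -0.98 and -0.99. COMMD3 shares 36.5% of its words with a readthrough transcript, and its level is uncertain for that reason. A core of 50 members, 30 on the RD side and 20 on the JR1 side, stayed past the limit under both other pseudocounts, after leaving out structural RNAs and after centring. MEF2C, TNNC2, CKM, IGFBP5, NDRG1, GNG2, ANKRD1, CPA4, MEST, APOE, LAMA5 and IFI6 are in it. The core also holds MAGED4B, XAGE1A, PGA4, PGA5 and the ribosomal RNA members. Summing near-identical copies was not among these settings, and with it the MAGED4 and XAGE1 pairs differed by -0.27 and -0.25, under the limit.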

How the data were processed

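RNA from RD and JR1 cells, 1 library per line and hairpin, was poly-A selected, made into directional libraries and read as pairs of 150 bases. The authors aligned to GRCh38 with STAR 2.7.9a, estimated levels with RSEM 1.3.2 and deposited TPM with 2 decimals. Depth is not kept in TPM, so neither counting error nor an interval can be given. Here changes were computed as log2 ratios with a pseudocount of 1 TPM in Python 3.11.15, numpy 2.4.6 and pandas 2.3.3, after a minimum mean of 5 TPM and removal of symbols starting with SNOR, SCARNA, RNU, RNVU, RN7S, RNA5, RNY, VTRNA, TRN or MIR and a digit. A fold change on this scale understates that of low genes. The calculation was tested on simulated data. No p-value was computed.

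The members and gene lists were chosen with earlier results of these data known. Named were SKP2, the 15 members at each end, members with opposite directions, the 5 genes each side of the limit, up to 6 members per list by size and neighbouring members. Other named members were chosen after their values were seen. Near-identical copies were found from shared 31-base words of GENCODE transcripts. Promoters are those of RefSeq. Words were searched for on both strands, and besides the words printed above the search covered AP-1, NF-kB, TEAD, E2F, TATA, CCAAT and GC box words. Alternatives were other pseudocounts, level filters, scalings and limits, and summed copies. Some members are not reported here by name.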

Additional observations from a re-analysis of the deposited data

Results flagged for a closer look

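PGA4, PGA5 and RNA28SN1 rose in RD and fell in JR1, each by at least 1 on the log2 scale, and are listed for that reason. The PGA4 change was 1.76 in RD cells against -1.31 for JR1 (difference 3.07), and the PGA5 change 1.80 against -1.20 (difference 2.999). RNA28SN1 changed by 3.91 and -1.19, a difference of 5.10. With structural RNAs left out, the JR1 change of PGA5 was -0.98, under the limit. After centring on the median of each line, 2 genes had opposite directions past 1. With 1 library per line and condition, the difference was not tested in any of the 3 genes.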

How the results depend on the processing

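No paired analysis was possible because each group holds 1 library and no test was made. The 144 members (81 on the RD side, 63 on the JR1 side, 3 with opposite directions past 1) depended on the settings as follows. With a pseudocount of 5 TPM there were 58 (33, 25 and 1), and with 0.1 TPM, 192, of which 6 had opposite directions. A minimum mean of 1 TPM gave 292 (159 and 133) and no minimum 409 (216 and 193). At least 5 TPM in each line left 88, with 34 on the JR1 side. A limit of 1.5 left 36 (24 and 12). Leaving out structural RNAs and rescaling gave 348 (248, 100 and 5), or 71.3% on the RD side, and 66.7% lay there after centring. Of the 144 members 130 remained among the 348. Leaving out ribosomal RNA, RMRP and RPPH1 too, a choice made after seeing the data, gave 445 (327, 118 and 6) with 73.5% on the RD side. The rescaled libraries have higher TPM, so more genes reached 5 TPM, 11344 and 11808 in these settings. Summing near-identical copies, also chosen after seeing the data, gave 135.

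Among the members, the difference of ANGPT2 turned from -1.07 to 0.29 with a pseudocount of 0.1 TPM, and no other member took another sign under a pseudocount or scaling. In 94 members the difference was under 1 in at least 1 of these settings. Rescaling without structural RNAs gave 27 members another sign of the RD change and 5 of the JR1 change, none of which had passed 1. Without replicates or depth, a difference in 1 gene cannot be told apart from library or counting error.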

Other observations

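The libraries of the 8851 genes were about as alike between lines as within a line. Pearson's r of log2(TPM + 1), across genes, was 0.910 between the shSCR libraries, 0.916 between the shSKP2.2 libraries, 0.928 between the libraries of RD and 0.905 between those of JR1. Genes are not independent replicates, and no p is given.

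Promoters of the members held an NF-kB word, GGGA, any base and TTTCC on either strand, in 3 of 62 genes on the RD side (OAS3, TAP1 and LINC01686) and in 0 of 42 on the JR1 side, against 0.579% of all promoters. The CCAAT word stood in 23 of 62 promoters on the RD side and 8 of 42 on the JR1 side, against 35.7% of all promoters. These are counts of letters and not of bound sites.

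A list of HEK293T markers, the cells in which lentivirus is commonly packaged, summed to 164 and 231 TPM in RD and 36.7 and 63.3 TPM in JR1. Of its 15 genes 6 were among the 8851, and none was a member. At the share of 1.63% over all genes this says little, and the part of these markers in the results was not tested.

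Of genes with at least 20 TPM in JR1 shSCR and at most 0.1 TPM in RD shSCR there was 1, the keratin gene KRT75, a member that read 43.99 and 24.99 TPM in JR1 and 0.06 and 0.47 TPM in RD. There was no gene of the reverse kind.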
